A study of Mus musculus with 18 samples.

Results

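The vascular basement membrane is the thin protein sheet on which brain endothelial cells sit. Its main network is collagen IV, which in vessels is built mostly from chains encoded by Col4a1 and Col4a2. A second network is made of laminins, each a trimer of an alpha, a beta and a gamma chain. Nidogens and perlecan bind both networks together. In the brain the sheet is shared by endothelial cells, pericytes and astrocyte endfeet, and it is known as a part of the blood-brain barrier that can be broken down and rebuilt after stroke. The 10 genes described here encode 2 collagen IV chains (Col4a1 and Col4a2), 5 laminin chains (Lama4, Lama5, Lamb1, Lamb2 and Lamc1), both nidogens (Nid1 and Nid2) and perlecan (Hspg2). They were taken by gene symbol from the 21638 rows of the deposited mouse gene table, and were chosen with earlier results of these data known.

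The table held RNA-seq counts from 18 libraries in 6 groups of 3. All were made from adult mouse brain cortical endothelial cells, sorted as positive for CD31 (an endothelial surface protein) and negative for CD41 and CD45 (platelet and leukocyte proteins), and isolated on day 7. Wild-type (WT) mice had either a sham procedure or middle cerebral artery occlusion (MCAO), a model of stroke, and cells came from the ipsilateral (injured) and the contralateral side in separate libraries. The 2 remaining groups came from the ipsilateral side after MCAO in mice labelled Hdac2 ECKO (Hdac2lox/lox:Cdh5CreERT2) and Ezh2 ECKO (Ezh2lox/lox:Cdh5CreERT2), in which a tamoxifen-inducible Cre driven by the endothelial Cdh5 promoter was used to delete Hdac2, a histone deacetylase, or Ezh2, a histone methyltransferase. Every group, the WT controls included, had tamoxifen at 75 mg/kg, and the study's design gives 5 doses for the deletion mice. The labels do not say whether the WT mice carried Cre, whether both sides came from the same mice, or how many mice made up a library. The replicates may therefore be technical in part, and each p-value below measures only the spread between these libraries.

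Total counts were 25791401 to 57576255 per library. A count of 3, taken as the detection floor, was worth 0.0619 to 0.101 CPM, the count per 1e+06 counts of the scaled library. Endothelial markers summed to 13100 CPM or more in every library, against at most 201 CPM for 13 pericyte and smooth muscle markers, so RNA of the labelled cell type was present in each. The 5 red cell markers were also high. They summed to a median of 50300 CPM over the libraries, to at most 298000 CPM in Hdac2 ECKO and to only 70.1 to 671 CPM in Ezh2 ECKO, and their part in the results below was not tested. The labels of the deletion groups were not matched by lower RNA of the targeted gene. Hdac2 was at 57.6, 85.0 and 87.9 CPM in the Hdac2 ECKO libraries and at 84.4, 68.2 and 96.1 CPM in the MCAO ipsilateral libraries. Ezh2 was at 12.0, 19.7 and 8.42 CPM in the Ezh2 ECKO libraries and at 4.45, 7.02 and 7.85 CPM in the MCAO ipsilateral libraries. These are whole-gene counts and do not show the deleted exons by themselves, so both groups are called below by their labels. Counts on 1466 olfactory and vomeronasal receptor genes, which endothelial cells are not known to use, reached 1889 CPM in MCAO contralateral replicate 1 and 2083 CPM in Ezh2 ECKO replicate 2, against 151.8 to 716.3 CPM in the other 16 libraries.

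Col4a1 and Col4a2 lie head to head on chromosome 8. In the GENCODE annotation of build GRCm38 (mm10) Col4a1 spans chr8:11198423-11312826 on the minus strand and Col4a2 spans chr8:11312805-11449287 on the plus strand, so the 2 genes overlap by 22 bases at their starts. The sequence of that junction, from the RefSeq promoter table of GRCm38.p6, is shown because the levels of both genes are compared throughout. It is the plus strand at chr8:11312801-11312830, and the capitals mark the bases that both genes contain.

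Col4a1-Col4a2 junction: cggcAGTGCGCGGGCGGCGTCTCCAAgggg

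A GC box, GGGCGG, stood inside the shared bases. Over the full 300-base window of the Col4a2 entry, chr8:11312555-11312854, both strands held 3 matches to GGGCGG and 1 to CCAAT, with no overlap between the motifs. Of all 32851 promoter windows of this length, 35.7% held GGGCGG and 37.4% held CCAAT. The window had 73.7% GC, against a median of 52.7% over all windows, and 33 CpG dinucleotides, against a median of 7. Most of it, 272 of 300 bases, lies inside Col4a1. Of the 10 genes, 7 had an entry in the promoter table. Of those 7 windows, 6 held GGGCGG and 4 held CCAAT.

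Length-scaled levels set the order of the genes. Collagen IV led: Col4a1 had a mean of 31.3 ± 6.89 CPM per kilobase (SD, n = 18 libraries) and Col4a2 16.3 ± 3.15. Lamb2, the laminin beta 2 chain, followed at 12.6 ± 2.69 CPM per kilobase, then Nid2 at 9.21 ± 3.50. Nid1 (5.34 ± 2.68), Lamc1 (4.43 ± 1.22), which encodes the gamma 1 chain shared by most laminins, and Lama5 (4.35 ± 0.938), which encodes the alpha 5 chain, came next on the same scale. Lama4, the alpha 4 chain characteristic of vessels, was at 2.90 ± 0.926 CPM per kilobase, Hspg2 at 0.853 ± 0.293 and Lamb1, the beta 1 chain, at 0.365 ± 0.427.

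Neighbours in this order were not all separated. Col4a1 was above Col4a2 in 18 of 18 libraries, Col4a2 above Lamb2 in 16, Lamb2 above Nid2 in 14 and Nid2 above Nid1 in 17. Nid1 was above Lamc1 in only 9 libraries and Lamc1 above Lama5 in 8, so these 3 levels did not differ beyond their spread. Lama5 was above Lama4 in 15 libraries, Lama4 above Hspg2 in 18 and Hspg2 above Lamb1 in 15. Hspg2 has the longest exon length of the set, 14739 bases in the deposited table, and a transcript sampled unevenly along its length would read low on this scale. Such unevenness was not tested.

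**Figure D1:**
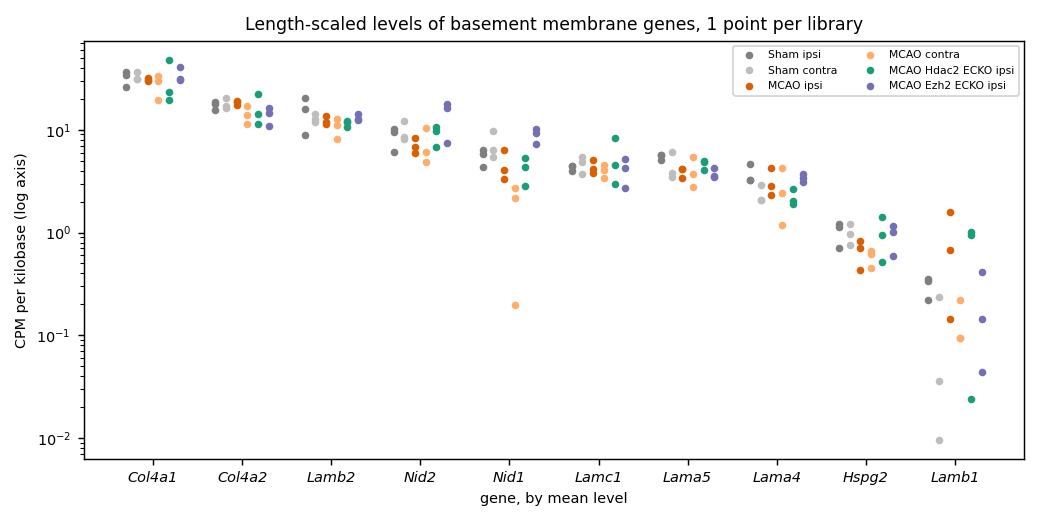
Length-scaled level (CPM per kilobase of exon, log axis) of each basement membrane gene, ordered by mean, with 1 point per library and colour by group. Col4a1 has the highest mean, 31.3, and Lamb1 spreads from 0.00969 to 1.59 CPM per kilobase.

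The spread within groups differed widely between genes. The coefficient of variation of CPM among the 3 libraries of a group had a median over the 6 groups of 9.62% for Lamb2, 11.1% for Lama5 and 17.4% for Col4a1. It was 30.9% for Nid1 and 87.3% for Lamb1. Lamb1 rested on 4 to 660 counts per library, while Col4a1 had 4996 to 13306. The fold intervals given below were accordingly widest for Lamb1.

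No gene of the set passed the test in any of 11 comparisons. The test was edgeR's quasi-likelihood F-test, fitted to all 18 libraries and 17094 genes, with Benjamini-Hochberg adjustment over all of them and a threshold of 0.05. All 10 genes passed the filter on low counts. Of the 110 gene-by-comparison values, 6 had an unadjusted p under 0.05, and 4 of these 6 were of Nid1. DESeq2 and limma-trend also called none of the 10, and limma-voom with sample weights called Nid1 in 1 comparison, given below. The fold intervals that follow show only the spread between these libraries in the edgeR fit without correction for GC content. Some folds lay outside them once each library's GC trend was taken out, as given below.

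The first question was what occlusion did on the injured side 7 days later. On the injured side, 0 of the 10 genes were called between MCAO ipsilateral and sham ipsilateral libraries, where 0.0% of all tested genes were called and 1210 genes had an unadjusted p under 0.05. The count over all genes depended on the method. DESeq2 called 69, limma-voom with sample weights 1273 and an edgeR fit of only the groups compared 74, with 0 of the 10 genes called in each. Log2 fold changes ran from -0.65 for Hspg2 to 1.41 for Lamb1, with a median of -0.25 over the 10 genes and -0.09 over all tested genes. With each library's GC trend taken out, these medians were -0.33 and 0.07, with 9 of the 10 genes below 0 and none called. Lama5 alone had groups that did not overlap, against 27.7% of all tested genes.

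Collagen IV values overlapped between sham and occluded cortex. Col4a1 was at 274, 193 and 253 CPM in the sham ipsilateral libraries and at 236, 228 and 223 CPM in the MCAO ipsilateral libraries. The occluded values all lay inside the sham range. The fitted fold was 0.954, with a 95% interval of 0.598 to 1.52. Col4a2 was at 119, 102 and 123 CPM in sham and at 126, 124 and 115 CPM in MCAO, a fold of 1.06 with an interval of 0.690 to 1.64. Once each library's GC trend was taken out, the log2 fold change of Col4a1 moved from -0.07 to -0.34 ± 0.38. That of Col4a2 turned from 0.09 to -0.31 ± 0.39.

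Among laminins, Lama5 was at 65.0, 64.1 and 58.2 CPM in the sham ipsilateral libraries and at 47.1, 38.9 and 47.8 CPM in the MCAO ipsilateral libraries. All 3 occluded libraries lay below all 3 sham libraries. The log2 fold change was -0.48 ± 0.33 (SE), with an edgeR adjusted p of 0.766. Pericyte and smooth muscle markers also stood lower on this side: 11 of 12 tested had a log2 fold change below 0, with a median of -0.77 and none called. Their sum was 108 to 166 CPM in sham and 40.2 to 104 CPM in MCAO ipsilateral libraries. Other marker lists differed too, with none called. Fibroblast markers were above 0 in 7 of 8 (median 1.88) and microglia and macrophage markers in 8 of 9 (median 1.6). Neuron markers were below 0 in 5 of 6. Endothelial markers were above 0 in 7 of 14, and summed to 16300 to 17500 CPM in sham and 21100 to 30700 CPM in MCAO. The part of any of these lists in the Lama5 and Hspg2 values was not tested. Lamb2 had a fold of 0.822 (interval 0.522 to 1.29), Lamc1 of 1.01 (0.581 to 1.76) and Lama4 of 0.849 (0.469 to 1.54). Lamb1 was at 3.47, 2.17 and 3.35 CPM in sham and at 1.44, 6.66 and 15.8 CPM in MCAO. The occluded libraries lay on both sides of the sham libraries, and the interval of the fold, 0.489 to 14.4, left the size of any difference unresolved.

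For the proteins that link the networks, the groups overlapped on this side. Nid1 had a fold of 0.835 (interval 0.372 to 1.87) and Nid2 of 0.808 (0.460 to 1.42). Hspg2 was at 16.8, 10.4 and 17.9 CPM in sham and at 10.3, 6.36 and 12.1 CPM in MCAO, with a fold of 0.638 (0.306 to 1.33). With each library's GC trend taken out, the log2 fold change of Hspg2 moved from -0.65 to -1.02 ± 0.54 and that of Lama5 from -0.48 to -0.88 ± 0.48, with edgeR adjusted p of 0.677 and 0.681.

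**Figure D2:**
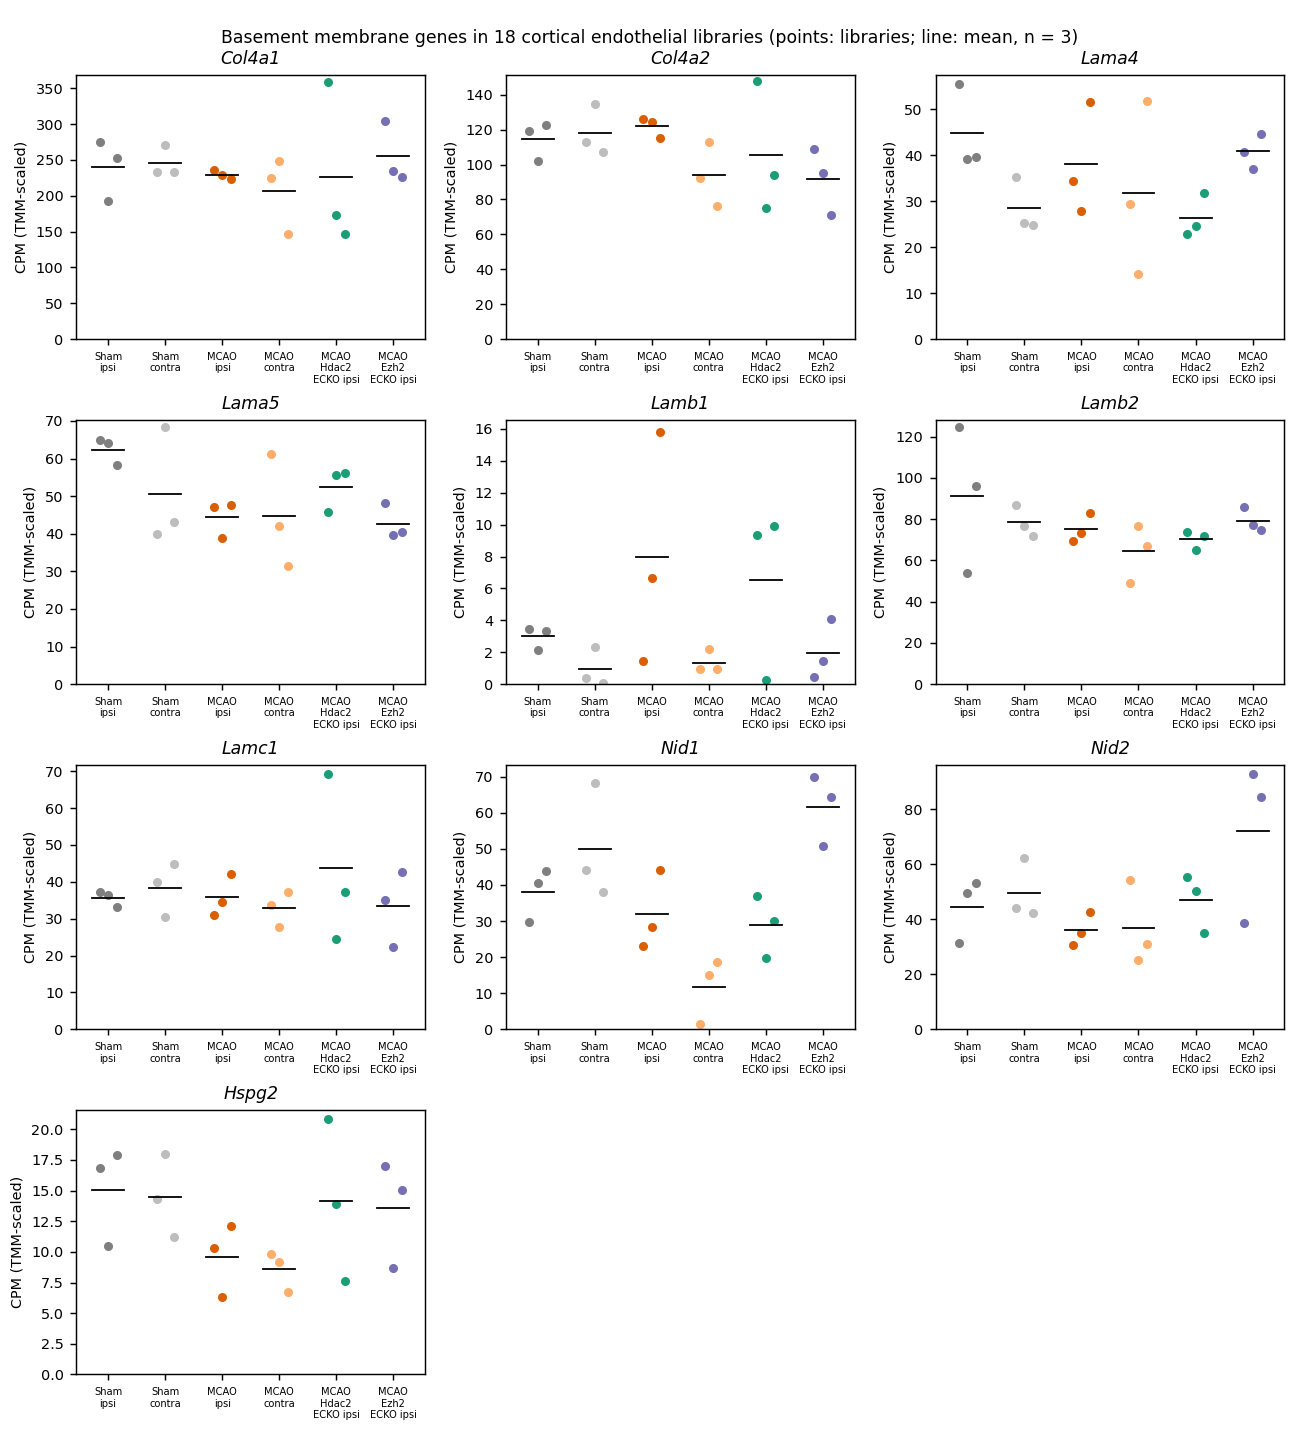
CPM (scaled by TMM) of each basement membrane gene in the 6 groups, with 1 point per library and a line at the mean of 3. The axes start at 0 and differ between genes, and the lowest Nid1 point, 1.38 CPM, is in MCAO contralateral replicate 1.

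On the opposite side, 0 of the 10 genes were called between MCAO contralateral and sham contralateral libraries, where 0.0% of all tested genes were called and 754 had an unadjusted p under 0.05. Nid1, a linker of laminin to collagen IV, had the largest difference of the set. It was at 44.0, 68.1 and 37.9 CPM in the sham contralateral libraries and at 1.38, 15.1 and 18.6 CPM in the MCAO contralateral libraries. Each occluded library lay below every sham library. The log2 fold change was -2.09 ± 0.58, a fold of 0.234 with an interval of 0.101 to 0.544. Its unadjusted p by edgeR was 0.00174 and its adjusted p was 0.920.

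The size of the Nid1 difference depended on 1 library. MCAO contralateral replicate 1, which had 44 Nid1 counts, is also the library with 1889 CPM on receptor genes. Without it the log2 fold change was -1.54 ± 0.40, with an edgeR adjusted p of 0.553, so the direction held while the size was smaller. Markers of pericytes, which also make basement membrane, stood in the same order. The 13 pericyte and smooth muscle markers summed to 103 to 201 CPM in the sham contralateral libraries and to 17.9 to 68.8 CPM in the MCAO contralateral libraries. Among them Rgs5, a pericyte gene, had means of 60.2 ± 26.0 and 10.7 ± 5.78 CPM (SD, n = 3), and no marker of that list was at 0 in all libraries. The part of pericyte RNA in the Nid1 values was not tested, and in bulk samples fewer cells of a type cannot be told apart from less RNA per cell.

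The other contralateral differences were smaller. Nid2, the second nidogen, was at 44.2, 62.3 and 42.2 CPM in sham and at 54.3, 25.1 and 31.2 CPM in MCAO, with overlapping groups and a fold of 0.744 (interval 0.423 to 1.31). Hspg2 was at 14.3, 18.0 and 11.2 CPM in sham and at 9.86, 9.19 and 6.73 CPM in MCAO. Its groups did not overlap, and the fold was 0.593 (0.284 to 1.24). Together with Nid1 that made 2 of 10 genes with groups apart, both lower after occlusion, against 9.65% of all tested genes in either direction. The median log2 fold change was -0.27 over the 10 genes and 0.17 over all tested genes.

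Over both sides together, 0 of the 10 genes were called between MCAO and sham, against 0.152% of all tested genes (26). Here 9 of the 10 log2 fold changes were below 0, with a median of -0.22 against 0.06 over all tested genes. By side, Nid1 had log2 fold changes of -0.26 ± 0.56 ipsilaterally and -2.09 ± 0.58 contralaterally. Over both sides its value was -1.18 ± 0.40, with an edgeR unadjusted p of 0.00804 and an adjusted p of 0.288. Limma-voom with sample weights called it at -1.03 ± 0.25, adjusted p = 0.0120, in a fit that called 2199 of all genes. Over the other alternatives its adjusted p ran from 0.0515 to 0.373, and over the libraries left out in turn from 0.0733 to 0.680. Hspg2 followed with -0.70 ± 0.36 and an edgeR adjusted p of 0.587.

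Within occluded mice, 0 of the 10 genes were called between the ipsilateral and the contralateral side, where 0.0% of all tested genes were called. Nid1 had a log2 fold change of 1.44 ± 0.57 (edgeR unadjusted p = 0.0202, adjusted p = 1), and its ipsilateral libraries all lay above its contralateral ones. Col4a2 was the only other gene of the set with groups apart, at 126, 124 and 115 CPM ipsilaterally and 92.4, 113 and 76.1 CPM contralaterally. That made 2 of 10 genes, both higher ipsilaterally, against 5.37% of all tested genes in either direction. Taking out each library's GC trend turned the Col4a2 log2 fold change from 0.38 to -0.20 ± 0.39, while that of Nid1 was 1.27 ± 0.59. The median of the 10 genes went from 0.19 to -0.20 in that fit, with 3 of 10 above 0. Over all tested genes the median was -0.05 before and -0.10 after. Lamb1 had a log2 fold change of 2.55 ± 1.22 (edgeR unadjusted p = 0.0491, adjusted p = 1), with overlapping groups and an interval of the fold from 1.01 to 34.1.

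In sham mice, 0 of the 10 genes were called between sides, where 0.0% of all tested genes were called. Lama4 was at 55.4, 39.2 and 39.5 CPM ipsilaterally and at 35.3, 25.2 and 24.9 CPM contralaterally. It was the 1 gene of the set with groups apart, against 15.4% of all tested genes. The test of whether the side difference itself differed between occluded and sham mice called 0 of the 10 genes and 0.0% of all tested genes. For Nid1 that difference of differences was 1.83 ± 0.80 on the log2 scale, with an edgeR unadjusted p of 0.0324 and an adjusted p of 0.941.

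The next question was how the labelled deletions stood against WT mice with the same occlusion. Both are compared with the same 3 MCAO ipsilateral libraries, so the values of the 2 comparisons are not independent and are given side by side. For Hdac2 ECKO, 0 of the 10 genes were called, against 0.0117% of all tested genes (2). In Ezh2 ECKO libraries 0 of the 10 genes were called either, where 1.46% of those tested were (250). At an unadjusted p under 0.05 the counts were 0 of 10 against 1683 genes for Hdac2 ECKO and 1 of 10 against 3287 genes for Ezh2 ECKO.

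Without correction for GC content, the nidogens had the largest positive differences in Ezh2 ECKO. With each library's GC trend taken out, the log2 fold change of Hspg2, 1.64 ± 0.55, was above that of Nid1, 1.22 ± 0.59. Nid2 was at 30.5, 34.9 and 42.8 CPM in the MCAO ipsilateral libraries, at 55.5, 50.2 and 35.0 CPM in Hdac2 ECKO and at 38.7, 92.8 and 84.5 CPM in Ezh2 ECKO. The Ezh2 ECKO libraries were high in 2 of 3 cases, and replicate 1 lay inside the control range. The log2 fold change was 1.00 ± 0.40 in Ezh2 ECKO (edgeR unadjusted p = 0.0196, adjusted p = 0.177) and 0.38 ± 0.39 in Hdac2 ECKO. For Nid2 the highest value came from the library with 2083 CPM on receptor genes. Nid2 also overlaps Rtraf on the other strand by 437 bases, and the strand setting of the counting is not given in the sources used here.

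Nid1 was at 23.1, 28.3 and 44.1 CPM in the MCAO ipsilateral libraries, at 37.0, 19.9 and 30.1 CPM in Hdac2 ECKO and at 69.8, 50.8 and 64.5 CPM in Ezh2 ECKO. All 3 Ezh2 ECKO libraries lay above both other groups. The log2 fold change against MCAO ipsilateral was 0.96 ± 0.57 in Ezh2 ECKO, with an edgeR adjusted p of 0.348, and -0.13 ± 0.56 in Hdac2 ECKO. The pericyte and smooth muscle marker sum was 40.2 to 104 CPM in MCAO ipsilateral, 22.6 to 70.6 CPM in Hdac2 ECKO and 27.8 to 170 CPM in Ezh2 ECKO libraries. Rgs5 had means of 34.8 ± 16.2, 21.1 ± 13.6 and 58.0 ± 59.1 CPM (SD, n = 3) in the same order. Pdgfrb, a pericyte receptor, was at 0.472 ± 0.534, 0.538 ± 0.633 and 0.261 ± 0.0893 CPM, so its mean was not higher in Ezh2 ECKO. Of the 12 tested markers of that list, 8 had a log2 fold change below 0 in Ezh2 ECKO against MCAO ipsilateral, with a median of -1.03 and none called. The highest sum came with 125 CPM of Rgs5 in Ezh2 ECKO replicate 3. The part of these cells in the Nid1 values was not tested.

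Collagen IV was spread widely in Hdac2 ECKO. Col4a1 was at 358, 173 and 147 CPM in Hdac2 ECKO and at 305, 234 and 225 CPM in Ezh2 ECKO, beside 236, 228 and 223 CPM in MCAO ipsilateral. Its fold was 0.988 (interval 0.619 to 1.58) for Hdac2 ECKO and 1.11 (0.697 to 1.77) for Ezh2 ECKO. Col4a2 was at 148, 75.2 and 93.9 CPM in Hdac2 ECKO and at 109, 95.4 and 71.3 CPM in Ezh2 ECKO, beside 126, 124 and 115 CPM in MCAO ipsilateral. All 3 Ezh2 ECKO libraries lay below the controls for Col4a2, with a fold of 0.754 (0.489 to 1.16) and an edgeR adjusted p of 0.440. Base composition of the libraries bears on these values. With each library's GC trend taken out, the Col4a2 log2 fold change of Ezh2 ECKO turned from -0.41 to 0.74. That of Col4a1 moved from 0.15 to 1.08 ± 0.38, a fold of 2.12 that lies outside the interval above, with an edgeR adjusted p of 0.192. In Hdac2 ECKO the Col4a1 value became 0.53 by the same correction.

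No laminin chain was called in either deletion. In Ezh2 ECKO the fold was 1.06 (interval 0.672 to 1.66) for Lamb2, 0.930 (0.534 to 1.62) for Lamc1, 0.958 (0.597 to 1.54) for Lama5 and 1.08 (0.594 to 1.95) for Lama4. In Hdac2 ECKO it was 0.934 (0.594 to 1.47) for Lamb2, 1.22 (0.699 to 2.12) for Lamc1, 1.18 (0.734 to 1.89) for Lama5 and 0.695 (0.383 to 1.26) for Lama4. Lamb1 was at 9.32, 0.241 and 9.94 CPM in Hdac2 ECKO and at 0.431, 1.42 and 4.05 CPM in Ezh2 ECKO. Its groups overlapped those of MCAO ipsilateral, and its log2 fold change in Ezh2 ECKO was -2.01 ± 1.20 with an edgeR adjusted p of 0.350. Hspg2 had folds of 1.47 (0.706 to 3.07) in Hdac2 ECKO and 1.41 (0.677 to 2.94) in Ezh2 ECKO. Taking out the GC trend raised several of these values in Ezh2 ECKO, to log2 fold changes of 1.12 ± 0.33 for Lamb2, 1.04 ± 0.48 for Lama5 and 1.64 ± 0.55 for Hspg2. The corrected Lamb2, Lama5 and Hspg2 folds, 2.17, 2.06 and 3.12, lie above the intervals just given, and their edgeR adjusted p were 0.129, 0.296 and 0.176. In Hdac2 ECKO the corrected values were 0.96 ± 0.48 for Lama5 and 1.20 ± 0.54 for Hspg2.

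Counted by groups that did not overlap, Hdac2 ECKO against MCAO ipsilateral had 0 of 10 genes, against 19.9% of all tested genes. Ezh2 ECKO against MCAO ipsilateral had Nid1 higher and Col4a2 lower, 2 of 10, against 29.0%. The median log2 fold change over the 10 genes was -0.06 for Hdac2 ECKO and 0.09 for Ezh2 ECKO, beside 0.11 and 0.17 over all tested genes. These medians depended on base composition. With each library's GC trend taken out, the median of the 10 genes was 0.55 for Hdac2 ECKO and 1.06 for Ezh2 ECKO, beside 0.16 and 0.18 over all tested genes. In that fit 9 of the 10 values were above 0 in each comparison, and still none was called. The lowest edgeR adjusted p in Ezh2 ECKO was then 0.120, for Nid2, at a log2 fold change of 1.70 ± 0.48. The fit without the correction and the fit with it therefore place the set differently against all genes, and which is nearer to the RNA content of the cells was not tested.

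**Figure D3:**
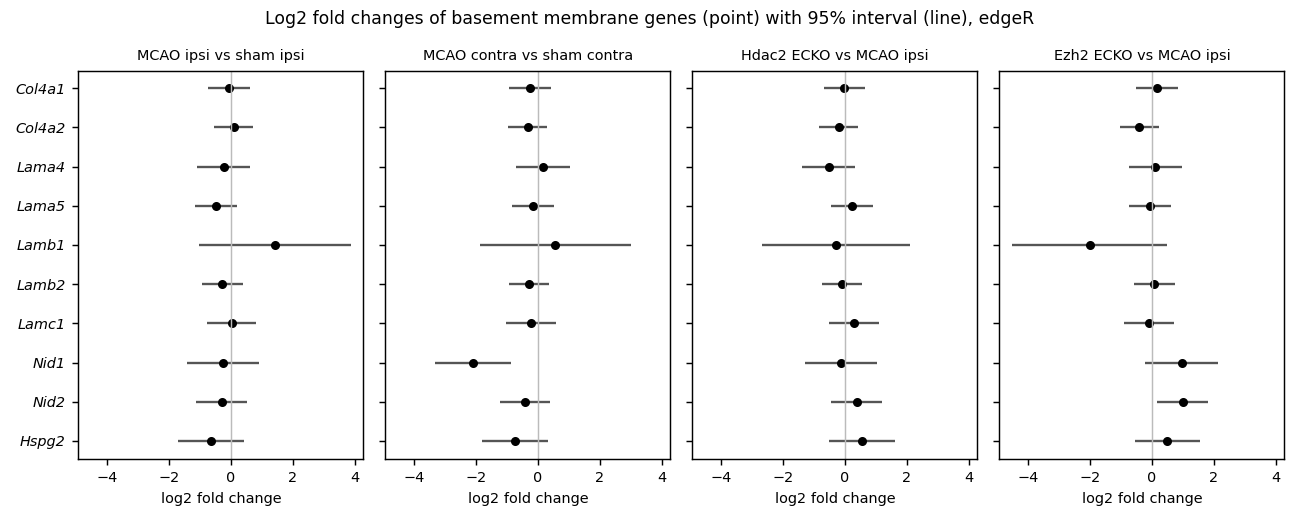
Log2 fold change (point) and 95% interval (line) of each basement membrane gene in 4 comparisons, from edgeR fitted to all 18 libraries. The intervals of Nid1 in the contralateral comparison and of Nid2 in Ezh2 ECKO lie off 0 before adjustment, and those of Lamb1 are the widest.

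The deletions were also set against each other and against sham. Between Hdac2 ECKO and Ezh2 ECKO, 0 of the 10 genes were called, against 0.123% of all tested genes (21). Lama4, Lamb2 and Nid1 were lower in all Hdac2 ECKO than in all Ezh2 ECKO libraries, 3 of 10 genes, against 12.1% of all tested genes. Their log2 differences were -0.63 ± 0.41, -0.18 ± 0.31 and -1.09 ± 0.57, with edgeR adjusted p of 0.624, 0.853 and 0.488. Against sham ipsilateral, 0 of the 10 genes were called for Hdac2 ECKO, where 0.0% of all tested genes were called, and 0 for Ezh2 ECKO, against 0.041% (7). Groups were apart for Lama4 and Lama5, both lower, in Hdac2 ECKO (15.3% of all tested genes), and for Nid1, higher, and Lama5, lower, in Ezh2 ECKO (13.7%). Lama5 had a log2 fold change of -0.55 ± 0.33 in Ezh2 ECKO and -0.25 ± 0.33 in Hdac2 ECKO against the same sham libraries that gave -0.48 for MCAO ipsilateral. Both deletion values changed sign once each library's GC trend was taken out. They were then 0.16 ± 0.48 in Ezh2 ECKO and 0.08 ± 0.48 in Hdac2 ECKO, while the MCAO ipsilateral value was -0.88 ± 0.48. The median of the 10 genes moved as well, with none called. Against sham it went from -0.14 to 0.50 for Ezh2 ECKO (9 of 10 above 0) and from -0.11 to 0.18 for Hdac2 ECKO (8 of 10 above 0). Between the deletions it went from -0.06 to -0.49 (8 of 10 below 0). Over all tested genes the corrected medians were 0.27, 0.23 and -0.06 in the same order.

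Ratios of related chains within a library do not depend on the scaling of that library. They were compared over groups with a two-sided exact permutation test, for 4 ratios and 36 tests in all, and with 3 libraries against 3 the smallest p it allows is 0.1. The Col4a1 to Col4a2 ratio of CPM per kilobase had a median of 1.88 and ran from 1.39 to 2.80. Triple helices that hold both chains are known to take up 2 chains of the first for each of the second. The ratio was 1.66, 1.63 and 1.72 in the MCAO ipsilateral libraries, 2.15, 2.05 and 1.39 in Hdac2 ECKO and 2.48, 2.18 and 2.80 in Ezh2 ECKO. All 3 Ezh2 ECKO libraries were above the 15 others. Against MCAO ipsilateral the exact permutation p was 0.1, the smallest possible, and 0.45 after adjustment.

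Base composition also differed between these groups. The rank correlation of log2 counts with transcript GC content over genes was 0.309 to 0.414 in MCAO ipsilateral and -0.324 to -0.209 in Ezh2 ECKO libraries, each against the mean of all libraries. In sham ipsilateral libraries it ran from -0.398 to 0.43, and their ratios were 2.04, 1.68 and 1.83. Whether the ratio followed base composition over the 18 libraries was not tested. Col4a2 transcripts have 60.6% GC and Col4a1 transcripts 57.7%. In the fit, the difference between both genes' log2 fold changes in Ezh2 ECKO was 0.56, and it was 0.34 once each library's GC trend had been taken out. The direction held and the size was smaller.

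The balance of laminin chains was uneven for beta and closer for alpha. Lamb2 made up 89.5% to 99.9% of the length-scaled sum of Lamb1 and Lamb2, with a median of 98.3%. The lowest share was in MCAO ipsilateral replicate 3, which had the highest Lamb1 level. Lama5 made up 39.1% to 75.9% of the sum of Lama4 and Lama5, with a median of 60.3%, and both extremes were MCAO contralateral libraries. The Lama4 to Lama5 ratio was 0.473, 0.417 and 0.533 in Hdac2 ECKO, 0.690, 0.675 and 1.02 in MCAO ipsilateral, 0.799, 0.883 and 1.04 in Ezh2 ECKO and 0.805, 0.578 and 0.641 in sham ipsilateral. Each Hdac2 ECKO library was below every library of those 3 groups, with an exact permutation p of 0.1 and an adjusted value of 0.45 in each case. Contralateral ratios were 0.837, 0.347 and 0.544 in sham and 0.453, 0.318 and 1.56 in MCAO, so some lay within or below the Hdac2 ECKO values. In the fit, the difference between both genes' log2 fold changes against MCAO ipsilateral was -0.76 in Hdac2 ECKO and 0.17 in Ezh2 ECKO. It was -1.30 and -0.72 once each library's GC trend had been taken out.

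The nidogen ratio was lower in MCAO than in sham libraries on the contralateral side. Nid1 to Nid2 was 0.743, 0.815 and 0.669 in sham contralateral and 0.0189, 0.450 and 0.445 in MCAO contralateral libraries, with an exact permutation p of 0.1 and an adjusted value of 0.45. The groups did not overlap. On the ipsilateral side the ratio was 0.713, 0.613 and 0.613 in sham and 0.563, 0.604 and 0.768 in MCAO, and these groups overlapped. It was 0.497, 0.295 and 0.641 in Hdac2 ECKO and 1.35, 0.408 and 0.568 in Ezh2 ECKO, so 1 library of each deletion lay below the 2 higher MCAO contralateral values.

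**Figure D4:**
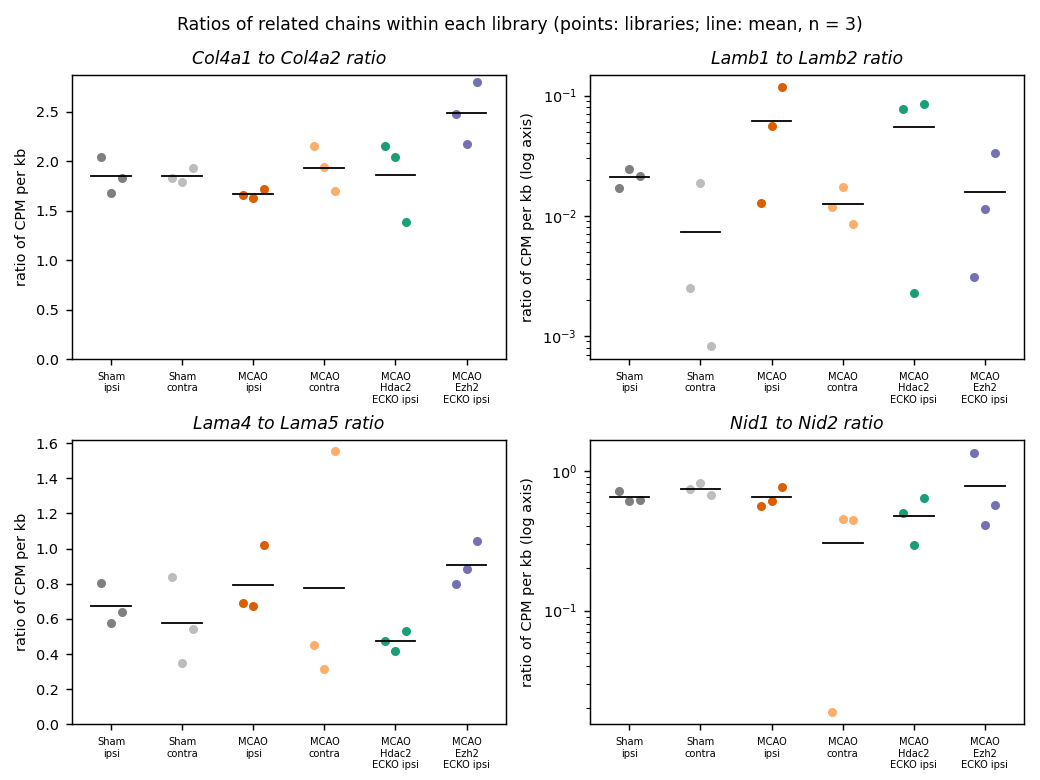
Ratios of CPM per kilobase for 4 pairs of related chains, with 1 point per library and a line at the group mean; the Lamb1 to Lamb2 and Nid1 to Nid2 panels have log axes. The Col4a1 to Col4a2 ratio is 2.18 to 2.80 in Ezh2 ECKO and at most 2.15 elsewhere.

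Levels of the 10 genes varied together only in part. Over the 18 libraries, 45 pairs of genes had Pearson correlations of log2 CPM from -0.245 to 0.706, with a median of 0.172. Col4a1 and Col4a2 had r = 0.706 and rho = 0.695, r = 0.668 when the 2 libraries most distant from the Col4a1 median were left out, and r = 0.859 with group means removed. Col4a1 and Hspg2 had r = 0.679 and rho = 0.633, with 0.523 and 0.734 in the same 2 checks. Libraries are shared by all pairs, and depth and base composition differ between them, so these values are given as a description. By the same measure the 5 genes most like the mean of the 10, among others whose mean reached 10 CPM, were Rnf216 (r = 0.832), Nfkb1 (0.789), Gtf2i (0.789), Slc16a1 (0.775) and Adam9 (0.773), out of 7805 genes compared.

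Genes that make, bind or cut the basement membrane were counted from 4 lists. In every comparison but 1, no gene of the 4 lists was called. The exception was Ezh2 ECKO against MCAO ipsilateral, where 1.46% of all tested genes were called. There, 1 of 21 tested genes of collagen IV folding, crosslinking and secretion fell, 1 of 18 receptors fell, 1 of 13 degradation genes rose and 0 of 24 other basement membrane components were called. The median log2 fold changes of the lists were -0.39, -0.34, -0.22 and 0.14, beside 0.17 over all tested genes. In Hdac2 ECKO against the same controls the medians were -0.37, -0.58, -0.28 and 0.14, beside 0.11, with no gene called.

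P4ha1 encodes a catalytic subunit of the prolyl 4-hydroxylase that stabilises collagen helices. It was at 86.9, 114 and 35.1 CPM in the MCAO ipsilateral libraries and at 18.4, 5.98 and 7.74 CPM in the Ezh2 ECKO libraries. The groups did not overlap, and P4ha1 fell by 2.88 ± 0.60 on the log2 scale, with an edgeR adjusted p of 0.0291. In Hdac2 ECKO it was at 11.3, 27.6 and 51.3 CPM, with a log2 fold change of -1.39 ± 0.57 and an edgeR adjusted p of 0.449. The sham ipsilateral libraries were at 21.8, 19.6 and 16.7 CPM, all below the MCAO ipsilateral libraries, with a log2 fold change of 2.02 ± 0.58 for occlusion and an edgeR adjusted p of 0.509.

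Bcam encodes a receptor for laminins that hold the alpha 5 chain. It was at 63.4, 81.2 and 45.2 CPM in MCAO ipsilateral and at 21.5, 12.2 and 11.4 CPM in Ezh2 ECKO libraries, and fell by 2.07 ± 0.48 on the log2 scale with an edgeR adjusted p of 0.0379. Reck encodes a membrane-anchored inhibitor of metalloproteinases. It was at 67.0, 73.6 and 66.0 CPM in MCAO ipsilateral and at 193, 127 and 207 CPM in Ezh2 ECKO libraries, and rose by 1.35 ± 0.32 on the log2 scale with an edgeR adjusted p of 0.0434. Neither gene's groups overlapped. In Hdac2 ECKO Bcam had a fold of 0.499 (interval 0.257 to 0.970) and Reck of 1.78 (1.12 to 2.82), with edgeR adjusted p of 0.496 and 0.431. For all 3 genes the difference between the deletions was itself not called (adjusted p of 0.323, 0.388 and 0.588 by edgeR for P4ha1, Bcam and Reck).

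Cell type markers differed between the same groups. The endothelial marker sum was 21100 to 30700 CPM in MCAO ipsilateral and 13100 to 16100 CPM in Ezh2 ECKO libraries. Of those 14 markers 8 had a log2 fold change below 0 and 6 above 0, with a median of -0.51. By edgeR 1 was called lower and 0 higher, and 10 had an unadjusted p under 0.05 in either direction. All 5 red cell markers were called lower, with a median of -7.22. The part of either in the P4ha1, Bcam and Reck values was not tested.

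These 3 calls did not hold under every setting. With each library's GC trend taken out, the edgeR adjusted p was 0.0729 for P4ha1, 0.239 for Bcam and 0.0990 for Reck, and the Bcam log2 fold change moved to -0.95. With the receptor gene counts as a covariate it was 0.0967, 0.127 and 0.112, and limma-voom gave P4ha1 an adjusted p of 0.0569. The P4ha1 and Bcam calls were lost without MCAO ipsilateral replicate 1 or 2 or Ezh2 ECKO replicate 2 or 3, and the Reck call without any 1 of the 6 libraries. The largest adjusted p was then 0.171, 0.191 and 0.190. Leaving out both libraries with receptor gene counts over 1000 CPM kept all 3 calls, at 0.0319, 0.0278 and 0.00953.

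**Figure D5:**
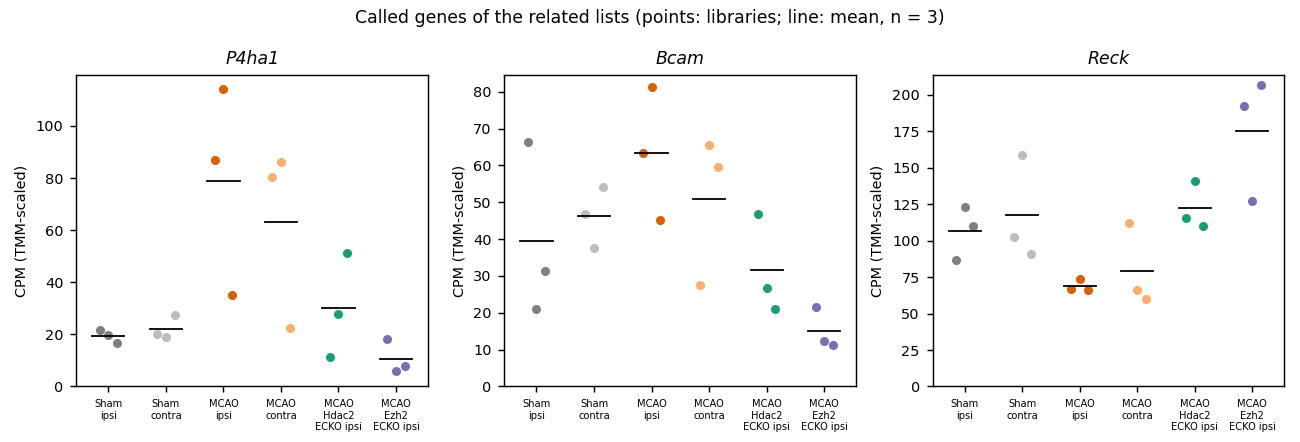
CPM of P4ha1, Bcam and Reck, the called genes of the related lists, in the 6 groups, with 1 point per library and a line at the mean of 3. In Ezh2 ECKO, P4ha1 and Bcam lie below and Reck lies above all 3 MCAO ipsilateral libraries.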

How the data were processed

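Paired-end RNA-seq libraries were made with the SMART-Seq v4 PLUS kit, per the labels' protocols. The authors deposited whole-number counts per gene for 18 libraries, in a table called normalized; totals differed between libraries and 77.3% to 89.4% of the counts from 1 to 20 were even, so they were treated as unscaled counts with both mates counted. The submitters' processing notes name FastQC, cutadapt, STAR, featureCounts, DESeq2 and build mm10; annotation, strand setting and versions are not given in the sources used here. Feature length, an other value per gene in bases, was deposited by the authors and scaled CPM per kilobase.

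A gene was tested where 3 or more libraries had 10 or more counts (17094 of 21638 genes). Tests were made with edgeR 4.0.16 in R 4.3.3 (TMM scaling, glmQLFit and glmQLFTest on 6 group means), adjusted by Benjamini-Hochberg. Standard errors are the absolute log2 fold change over the square root of F, and intervals are 95%. Alternatives used DESeq2 1.42.0 and limma 3.58.1. GC content was that of the longest GENCODE transcript (99.2% of tested genes). The code was tested on simulated data. The 10 genes, the gene lists and the comparisons were chosen with earlier results of these data known; ratios and the omission of libraries over 1000 CPM of receptor counts were added after seeing the data. All 10 genes were named, with up to 3 called genes per list and comparison. Lists are described by counts and medians only.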

Additional observations from a re-analysis of the deposited data

How the results depend on the processing

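The count of basement membrane genes called was 0 in all 11 comparisons in edgeR, and it stayed 0 under 12 alternative settings and with each of 18 libraries left out, with 1 exception. Limma-voom with sample weights called 1 gene, Nid1, between MCAO and sham over both sides, where it called 2199 of all genes against 26; the cause was not tested. Uncalled values were less settled: 48 of the 110 log2 fold changes changed sign under at least 1 of the 12 settings, and 42 with a library left out, none of them with an unadjusted p under 0.05 in edgeR. The labels do not say what a shared replicate number marks, and no comparison had every same-numbered pair correlated over 0.1 in its deviations. Over all comparisons these correlations were -0.353 to 0.403; they were 0.036 to 0.381 between the sides of MCAO and 0.0752 to 0.194 between Ezh2 ECKO and sham ipsilateral, where 3 of 3 libraries were closest to their own number. Whether the sides share mice therefore cannot be told from these values. With a replicate block the basement membrane genes called stayed at 0 in each comparison, while calls over all genes went from 250 to 12 for Ezh2 ECKO against MCAO ipsilateral, from 26 to 4 for MCAO against sham over both sides and from 21 to 9 between the deletions; the edgeR adjusted p with the block was 0.0558 for P4ha1, 0.0558 for Bcam and 0.0706 for Reck. For Ezh2 ECKO the all-gene count was also 1642 with DESeq2, 10 with the GC trend removed, 13 with receptor gene counts as a covariate and 1000 without both high-receptor libraries. The median log2 fold change of all genes there was 0.17 with TMM and 0.36 with DESeq2's size factors.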
